A study of Mus musculus with 30 samples.

Results

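The genes described here are 10 transcription factors of naive pluripotency, Nanog, Zfp42 (Rex1), Esrrb, Tfcp2l1, Klf2, Klf4, Klf5, Nr0b1 (Dax1), Nr5a2 (Lrh1) and Prdm14, chosen by name out of 23284 genes in the 2 deposited count tables, and all 10 passed the filter on low counts in both tables. The RNA came from mouse embryonic stem cells (ES cells) and from embryoid bodies (EBs), which are floating aggregates of differentiating ES cells. The study is about p53 and the Wnt and TGF-β signals that specify mesendoderm. E14Tg2a.IV cells (129/Ola, wild type), called E14 here, were kept in serum with LIF and were sampled daily with 2 libraries a day, as ES cells at day 0 and as EBs at days 1 to 4. The remaining 4 libraries came from day 4 EBs of lines with a C57BL/6J background that were kept in LIF with 2 kinase inhibitors, PD0325901 and CHIR99021. They were 2 libraries of Trp53+/+ cells and 2 of Trp53-/- cells in which hairpins target p63 and p73 as well, a line named p53 family loss below. The labels do not say how many clones a line represents, whether the Trp53+/+ line carries a control hairpin, or whether replicate libraries were grown separately. The p-values therefore cover only how these libraries vary, which may be technical.

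Naive pluripotency is the state of the preimplantation epiblast, and ES cells hold it with a network of transcription factors that bind each other's genes. LIF acts through Stat3 on Klf4 and Tfcp2l1, Wnt signalling acts on Esrrb by relieving repression by Tcf7l1, and Oct4 and Sox2 bind many genes of the network. When LIF is withdrawn the network is shut down before cells take on the formative and then the primed epiblast state. Nanog is expressed again in the epiblast near the primitive streak, and Klf4, Klf5, Prdm14, Nr5a2 and Esrrb also act in other cells, among them germ cells, trophoblast, gut epithelium or liver. The p53 protein has been described as a repressor of Nanog in differentiating ES cells.

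Promoter sequences of 3 members are shown for their matches to motifs of Oct4 with Sox2 and of Stat factors. RefSeq tables (GRCm38.p6) held 11 promoter windows for 8 of the 10 genes, and none for Klf5 and Prdm14. Capitals mark matches on either strand to the octamer core TTTGCAT, the joint Oct-Sox element (TTGCAT and ACAA with 1 base between), which overlaps the octamer core, the Stat site (TTC and GAA with 3 bases between), the element AAGGTCA read by Esrrb and Nr5a2, and the paired p53 core (CATG and CATG with 6 bases between). Each sequence is the 250 bases before an annotated start, 5′ to 3′ on the gene's strand: Nanog at chr6:122707239-122707488 (plus strand), Zfp42 at chr8:43307010-43307259 (minus strand) and Esrrb at chr12:86360867-86361116 (plus strand).
Nanog: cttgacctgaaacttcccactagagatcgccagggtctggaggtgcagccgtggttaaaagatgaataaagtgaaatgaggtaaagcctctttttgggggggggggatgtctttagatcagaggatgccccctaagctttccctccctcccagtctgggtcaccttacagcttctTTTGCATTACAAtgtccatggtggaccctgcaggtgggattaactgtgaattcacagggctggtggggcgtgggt
Zfp42: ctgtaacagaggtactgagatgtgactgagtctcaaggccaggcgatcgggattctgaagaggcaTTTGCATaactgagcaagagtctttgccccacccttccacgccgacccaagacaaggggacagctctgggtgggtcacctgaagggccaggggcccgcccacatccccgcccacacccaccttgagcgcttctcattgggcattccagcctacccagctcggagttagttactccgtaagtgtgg
Esrrb: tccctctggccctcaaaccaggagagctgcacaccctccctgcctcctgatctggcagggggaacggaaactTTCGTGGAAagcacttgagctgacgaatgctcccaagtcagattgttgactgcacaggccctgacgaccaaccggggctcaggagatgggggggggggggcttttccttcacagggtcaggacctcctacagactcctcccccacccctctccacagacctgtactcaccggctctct
The joint Oct-Sox element lies 74 to 64 bases before the Nanog start shown (the other Nanog window overlaps this one and holds the same element), and in 0.143% of all 32851 windows. The octamer core is in the Nanog and Zfp42 windows and in 4.12% of all windows. The Stat site is in 1 Esrrb window, 178 to 170 bases before its start, and in 7.02% of all windows. The Klf core CACCC is in 7 of the 11 member windows, from 6 of the 8 genes, and in 52.0% of all windows. The Tcf core CTTTGA is in that of Nr0b1 and in 13.8% of all. No member window holds AAGGTCA or the paired p53 core, which 4.08% and 0.490% of all windows hold. A match is a run of letters in a short window and says nothing of binding, which also occurs outside it.

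All 10 factors fell from ES cells to EBs of day 4, by very unequal amounts. Values below are read counts normalised by the authors to the depth of each library, and fold changes are log2 differences of count + 1 ± SE from limma, a linear model fitted over all genes, with Benjamini-Hochberg adjusted p. Counts are not divided by transcript length, so levels are not compared between genes, and fewer naive cells and less RNA per cell cannot be told apart in such bulk libraries. At day 4, all 10 members were called lower than at day 0, as were 16.7% of the 15841 genes tested. The median log2 fold change of the members was -4.80, and that of all genes 0.01. The count was 10 of 10 under every alternative run, leaving out any 1 library included.

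Zfp42, a zinc finger protein used as a marker of naive cells, stood at 21590 and 20872 in the 2 libraries of day 0, at 12667 and 4468 at day 1, at 1496 and 1038 at day 2, at 757 and 530.1 at day 3 and at 371 and 511 at day 4. Each day lay below the one before without overlap, and the libraries of day 1 stood furthest apart. By day 4 Zfp42 fell by 5.60 ± 0.41 on the log2 scale (adjusted p = 2.4e-05). Esrrb, an orphan nuclear receptor that can stand in for Nanog in ES cell self-renewal, had 27007 and 18763 at day 0, 7548 and 4527 at day 1, 1804 and 1600 at day 2, 966 and 738 at day 3 and 322 and 521 at day 4. It too was lower on every day without overlap, and it fell by 5.78 ± 0.31 by day 4 (adjusted p = 5.8e-06). Tfcp2l1, a target of LIF and Stat3, had 13530 and 10782 at day 0, 3294 and 2425 at day 1, 796 and 884 at day 2, 693 and 877 at day 3 and 457 and 422 at day 4. Its libraries of days 2 and 3 overlapped, and the other days did not. Tfcp2l1 fell by 4.78 ± 0.21 by day 4 (adjusted p = 3.9e-06).

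The nuclear receptors Nr0b1 and Nr5a2 had the largest fitted falls by day 4, that of Nr5a2 within the error of that of Esrrb. Nr0b1, a co-repressor that binds Oct4, had 8496 and 4722 at day 0, 4816 and 2214 at day 1, 529 and 356 at day 2, 202 and 93.2 at day 3 and 30.5 and 32.6 at day 4. Days 0 and 1 overlapped, and every later day lay below the one before. Nr0b1 fell by 7.60 ± 0.46 by day 4 (adjusted p = 1.0e-05), and 0.478% ± 0.022 (SD, n = 2) of the day 0 mean remained. Nr5a2, an activator of Pou5f1 and Nanog, had 2101 and 3062 at day 0, 1498 and 1044 at day 1, 248 and 157 at day 2, 76.3 and 74.3 at day 3 and 25.6 and 63.1 at day 4. No days overlapped, and Nr5a2 fell by 5.94 ± 0.43 (adjusted p = 2.2e-05).

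The 3 Klf factors, zinc finger proteins that overlap in binding sites and can replace one another in ES cells, took 3 different courses. Klf2 had 16747 and 8589 at day 0, 6523 and 4802 at day 1, 2291 and 2609 at day 2, 1388 and 1030 at day 3 and 361 and 608 at day 4. It was lower on each day without overlap and fell by 4.67 ± 0.34 by day 4 (adjusted p = 2.2e-05). Klf4, a direct target of Stat3, had 9848 and 7139 at day 0 and 1093 and 434 at day 1. It then had 193 and 170 at day 2, 144 and 112 at day 3, and 207 and 422 at day 4, so that both day 4 libraries lay above both of day 3. By day 4 Klf4 fell by 4.82 ± 0.44 (adjusted p = 7.2e-05). Klf5 had 1724 and 4172 at day 0, 979 and 620 at day 1, and from 433 to 636 in the 6 libraries of days 2 to 4. It fell by 2.37 ± 0.38 by day 4 (adjusted p = 0.0013), with 17.6% ± 0.34 of its day 0 mean left.

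Nanog, the homeobox factor that gives ES cells resistance to differentiation, did not fall steadily. It had 1723 and 1313 at day 0, 563 and 343 at day 1, 333 and 379 at day 2, 647 and 769 at day 3, and 455 and 442 at day 4. Both day 3 libraries lay above all libraries of days 1, 2 and 4 and below those of day 0. As a share of its day 0 mean, Nanog stood at 23.4% ± 2.14 at day 2, at 46.6% ± 5.70 at day 3 and at 29.6% ± 0.59 at day 4. It fell by 1.74 ± 0.27 by day 4 (adjusted p = 0.0011), the smallest fall of the 10. Prdm14, a regulator that holds down FGF signalling and DNA methylation and also specifies germ cells, had 559.8 and 955 at day 0, 690.1 and 276 at day 1, 56.8 and 29.3 at day 2, 22.9 and 24.8 at day 3, and 78.3 and 163 at day 4. Days 0 and 1 overlapped, and both day 4 libraries lay above all 4 of days 2 and 3. Prdm14 fell by 2.68 ± 0.54 by day 4 (adjusted p = 0.0045).

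**Figure D1:**
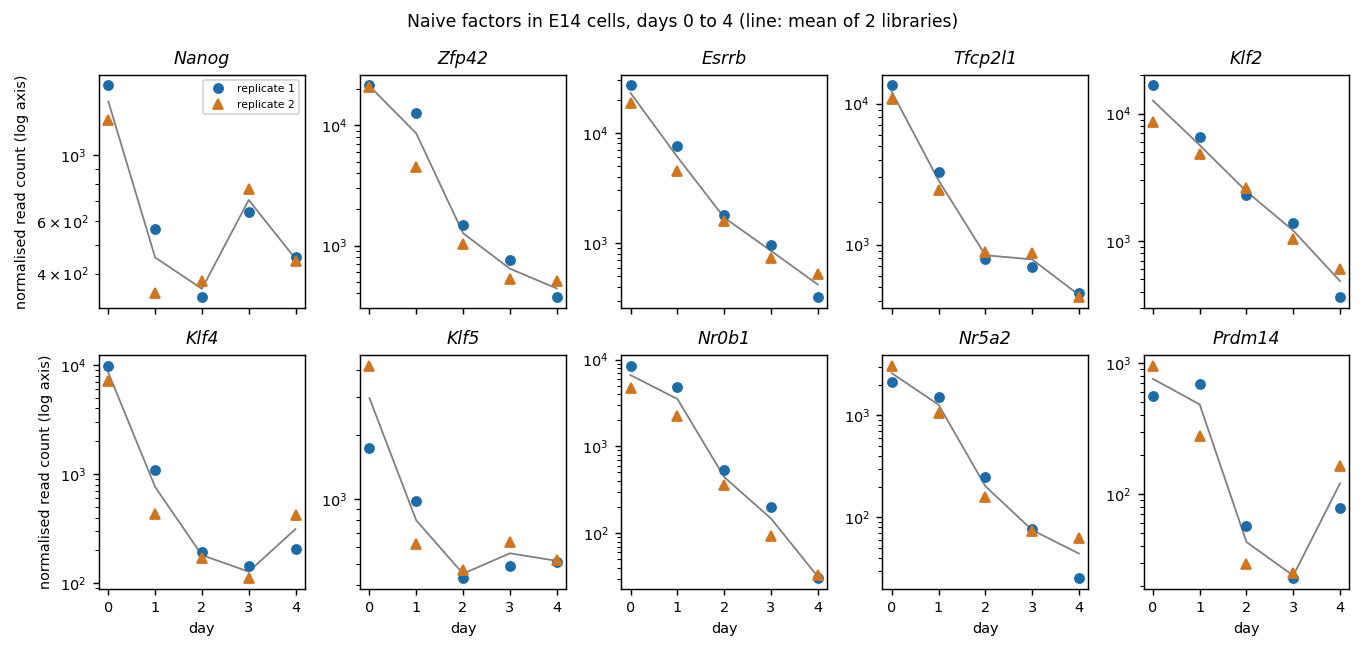
Normalised read count (vertical log axis) of each factor by day (horizontal axis) in E14 cells, with a point per library and a line through the means of 2 libraries. The means of Zfp42, Esrrb, Tfcp2l1, Klf2, Nr0b1 and Nr5a2 are lower at each later day. Nanog among the EB days is highest at day 3 (647 and 769), and Klf4 and Prdm14 are higher at day 4 than at day 3. The mean of Klf5 is 452 at day 2 and 563 at day 3.

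The order of loss was read from the point at which the line between log2 day means first reached 50% of the day 0 level. Klf4 came first at day 0.278, with a range of 0.222 to 0.370 over the 32 ways to take 1 library per day. Tfcp2l1 followed at 0.477, Esrrb at 0.514, Klf5 at 0.561, Nanog at 0.564, Zfp42 at 0.668, Klf2 at 0.910, Nr5a2 at 0.981, Nr0b1 at 1.02 and Prdm14 at 1.08. The range of Klf4 overlapped only with that of Klf5 (0.364 to 1.17), and it lay below those of the other 8. From Tfcp2l1 onward each gene's range overlapped that of the next, so the ranges did not order neighbours. The range of Tfcp2l1 (0.403 to 0.585) lay wholly below that of Nr5a2 (0.644 to 1.20). Ranges were taken for each gene alone, although all genes share the libraries, so an overlap does not show that 2 genes changed places. Prdm14 ranged from 0.560 to 1.36 and Nr0b1 from 0.516 to 1.32. With a straight line on the linear scale in place of the log2 scale, Klf4 was at day 0.549 and Tfcp2l1 at day 0.654, so that Klf4 was still first by a smaller gap. With sampling once a day, a 50% point inside day 1 rests on a line between 2 days.

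Loss of 90% gave another order. Klf4 passed it at day 0.922 (0.738 to 1.25), and Tfcp2l1, Zfp42, Prdm14, Esrrb, Nr0b1 and Nr5a2 passed it between day 1.70 and day 1.87. Klf2 passed it at day 3.00 (2.39 to 3.58), later than the ranges of those 7. Nanog and Klf5 did not reach it in any of the 32 courses. On this measure Prdm14, last to lose 50%, stood among the middle genes, at day 1.76 (1.48 to 2.04).

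**Figure D2:**
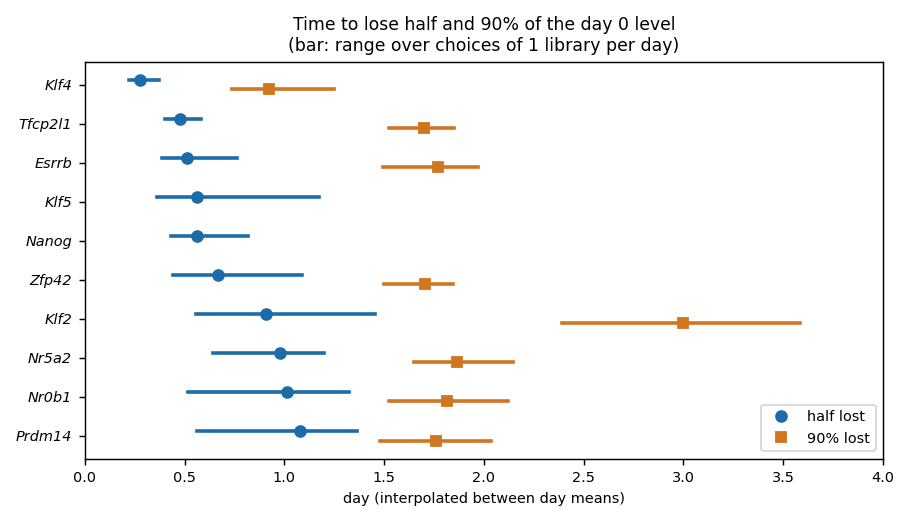
Day (horizontal axis) at which each factor had lost 50% (circles) and 90% (squares) of its day 0 level, interpolated between day means, with bars for the range over 32 choices of 1 library per day. Klf4 is earliest on both measures (day 0.278 and day 0.922), Klf2 is latest to lose 90%, and Nanog and Klf5 have no square because they did not lose 90%.

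From day 0 to day 1, 5 members were called lower, as were 1.55% of all genes. The log2 fold changes were -3.60 ± 0.44 for Klf4 (adjusted p = 0.0040), -2.10 ± 0.21 for Tfcp2l1 (adjusted p = 0.0029), -1.95 ± 0.31 for Esrrb (adjusted p = 0.012), -1.78 ± 0.38 for Klf5 (adjusted p = 0.034) and -1.77 ± 0.27 for Nanog (adjusted p = 0.010). Klf4 exceeded the next, Tfcp2l1, by 1.51 on the log2 scale, against a combined SE of 0.49, and no other pair of neighbours in this step differed by more than its combined SE. Not called by limma were Zfp42 at -1.50 (adjusted p = 0.083), Klf2 at -1.10 (adjusted p = 0.11), Nr5a2 at -1.02 (adjusted p = 0.22), Nr0b1 at -0.96 (adjusted p = 0.28) and Prdm14 at -0.74 (adjusted p = 0.47). DESeq2, a count model, called 7 members lower, Zfp42 and Klf2 among them, beside 777 of all genes. EB day 1 replicate 1 was higher than replicate 2 in all 10 members, by a median of 1.65-fold, whereas the median of all genes differed by 0.00 on the log2 scale. The set of members called changed without either EB day 1 library, in fits that leave 1 library for that day. Without replicate 2 the log2 fold changes of Esrrb and Nanog were smaller, at -1.58 and -1.42. Without replicate 1 that of Zfp42 was larger, at -2.25, and that of Klf5 was -2.11. With only the libraries of days 0 and 1 in the fit, 1 member was called, Klf4, beside 6 of all 15841 genes lower. Klf5 was no longer called without any 1 library of days 1 to 4, and its 2 day 0 libraries stood 1724 to 4172.

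The day 0 libraries also differed in other genes. The summed level of 10 immediate early genes, which respond to stress and handling, was 353 CPM (reads scaled to the library's total) in one and 1374.5 CPM in the other, and that of 9 trophoblast markers was 331 and 943 CPM. Their part in the day 0 levels of the factors was not tested. Without either day 0 library, 5 (without replicate 1) or 7 (without replicate 2) members were called lower at day 1, where all genes called lower went from 246 to 227 or 2474, and 10 at day 2, 3 and 4.

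From day 1 to day 2, 6 members were called lower, beside 0.436% of all genes. Prdm14 was at -3.39 ± 0.54, Nr0b1 at -2.91 ± 0.46, Nr5a2 at -2.66 ± 0.43 and Zfp42 at -2.59 ± 0.41, each with an adjusted p of 0.040. Esrrb was at -1.78 ± 0.31 (adjusted p = 0.047) and Tfcp2l1 at -1.75 ± 0.21 (adjusted p = 0.026). Klf4 had -1.92 (adjusted p = 0.070), Klf2 -1.19 (adjusted p = 0.10), Klf5 -0.78 (adjusted p = 0.29) and Nanog -0.31 (adjusted p = 0.57). DESeq2 called 8 members lower, Klf4 and Klf2 among them, beside 643 of all genes. The 6 limma calls lie near the threshold. The calls were lost without EB day 1 replicate 1 or without any 1 library of days 2 to 4, as were those of all other genes. Without EB day 1 replicate 2 or either day 0 library more genes were called, members among them. Each of these fits leaves 1 library for a day. Over all alternatives Prdm14 lay between -4.05 and -2.73 and Tfcp2l1 between -1.97 and -1.53. All 10 members were called lower at day 2 than at day 0, as were 8.22% of all genes, with a median of -3.79 against 0.00 for all genes. That count was 10 under every alternative run.

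From day 2 to day 3 limma called no member in either direction, and 0.00% of all genes lower and 0.133% higher. At an unadjusted p under 0.05, 5 members were lower (5.80% of all genes) and 1 higher (4.56%). The 5 were Zfp42 (-0.98), Esrrb (-1.01), Klf2 (-1.03), Nr0b1 (-1.65) and Nr5a2 (-1.38). The 1 higher was Nanog, at 0.99 ± 0.27 (adjusted p = 0.26). edgeR, a count model, also called no member (adjusted p = 0.25 for Nanog), whereas DESeq2 called Nanog higher (adjusted p = 0.034) and 2 members lower, Nr0b1 and Nr5a2, beside 173 of all 15841 genes higher and 142 lower. At day 3 all 10 members were still called below day 0, as were 14.4% of all genes, though the call of Nanog (-1.09 ± 0.27, adjusted p = 0.015) was lost without either day 3 library, with values of -0.97 and -1.22.

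From day 3 to day 4 Nr0b1 fell again, by 2.09 ± 0.46 (adjusted p = 0.043), the 1 member called lower beside 0.619% of all genes. The call was lost under edgeR (adjusted p = 0.055), without a filter on low counts, with a pseudocount of 10, and without either day 4 library, either day 2 library or EB day 3 replicate 1. Klf2 had -1.35 (adjusted p = 0.070), Esrrb -1.04 (adjusted p = 0.12), Tfcp2l1 -0.83 (adjusted p = 0.076) and Nanog -0.65 (adjusted p = 0.29). limma called no member higher, beside 2.31% of all genes, and at an unadjusted p under 0.05 it found 2 of 10, Prdm14 and Klf4, beside 8.28% of all genes. The same 2 were the members whose day 4 libraries both lay above those of day 3, beside 27.7% of all genes. Prdm14 was at 2.20 ± 0.54 (adjusted p = 0.064) and Klf4 at 1.21 ± 0.44 (adjusted p = 0.22). Prdm14 was called by DESeq2 (adjusted p = 0.0014) and without either day 0 library, not by edgeR (adjusted p = 0.070), and Klf4 by neither (adjusted p = 0.058 and 0.19). DESeq2 called 666 of all genes higher in this step, and limma 366, or 801 and 808 without a day 0 library. EB day 4 replicate 2 was higher than replicate 1 in 8 of the 10 members, by a median of 1.49-fold over the 10, Klf4 and Prdm14 included.

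Markers of other cell types moved over this last step. The summed level of 12 primitive and visceral endoderm markers was 94.3 to 140.0 CPM at day 3 and 549 to 563 CPM at day 4, and 6 of 11 tested rose. That of 9 trophoblast markers, some of which mark mesoderm too, was 134 to 244 and 673 to 1000.2 CPM, and 3 of 8 tested rose. The 8 germ cell markers summed to 124 to 152 and 148 to 153 CPM, and 1 of 8 rose. No marker of these 3 lists was at 0 in both libraries of day 3 or of day 4. Their part in the values of Prdm14 and Klf4 was not tested.

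**Figure D3:**
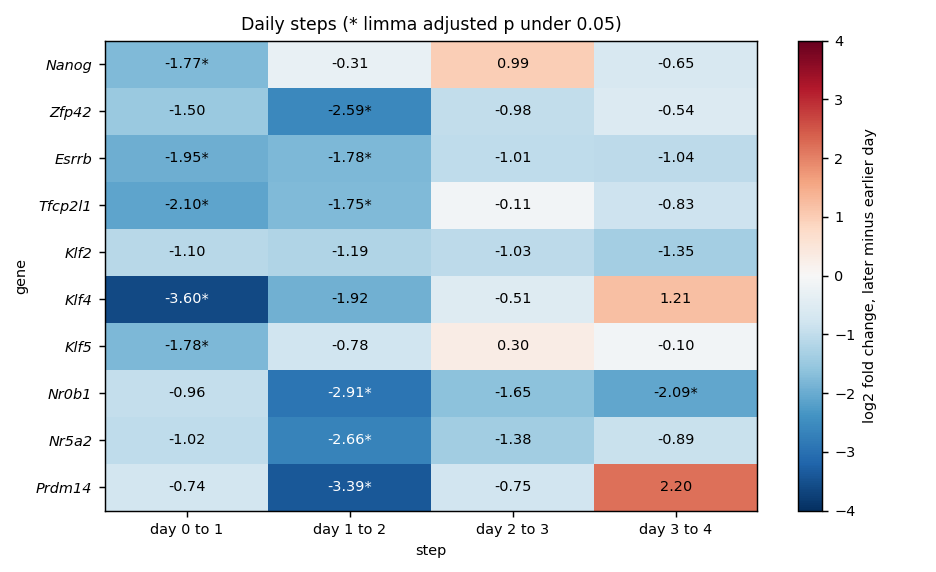
Log2 fold change of each factor (rows) in each daily step (columns), later minus earlier day, with blue for lower, red for higher and a star for an adjusted p under 0.05 with limma. Klf4 has the largest first step (-3.60), Prdm14, Nr0b1, Nr5a2 and Zfp42 have theirs from day 1 to day 2, and the positive steps of Nanog (0.99), Klf4 (1.21) and Prdm14 (2.20) carry no star.

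Ordered by the size of the fall by day 4, Nr0b1 came first, followed by Nr5a2, Esrrb, Zfp42, Klf4, Tfcp2l1, Klf2, Prdm14, Klf5 and Nanog. Nr0b1 exceeded Nr5a2 by 1.66 (combined SE 0.63), and Klf2 exceeded Prdm14 by 1.99 (combined SE 0.64). Within the group from Nr5a2 to Zfp42, and from Klf4 to Klf2, neighbours differed by 0.04 to 0.17, less than their combined SE. Prdm14 and Klf5 differed by 0.31 (combined SE 0.66), and Klf5 and Nanog by 0.62 (combined SE 0.46). These gaps between genes are given as descriptions with no test.

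Across the 10 E14 libraries, which share their days, the members that fell steadily tracked each other most closely. Pearson's r of log2 counts was 0.986 for Zfp42 and Esrrb and 0.983 for Klf2 and Nr0b1, and lowest, at 0.456, for Nanog and Prdm14. Outside the 10, the gene most like Zfp42 was Jam2 (r = 0.993), that most like Esrrb was Triml2 (0.994), and that most like Nr0b1 was Pnldc1 (0.997), out of 1284 genes with a range of at least 4-fold. Nanog was closest to Pim3, a kinase gene of the LIF pathway, with r = 0.948. Pim3 had means of 9997 at day 0, 2990.1 at day 1, 2175 at day 2, 3021 at day 3 and 2835 at day 4. Klf4 was closest to Xaf1 (0.990), Prdm14 to Notum, a secreted Wnt inhibitor (0.984), Klf2 to Stra8 (0.991), Nr5a2 to Itpka (0.993), Tfcp2l1 to Lrrc34 (0.984) and Klf5 to Trps1 (0.964).

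Other genes of the network set these courses in context. Of 10 genes of the LIF and Stat3 pathway, 7 fell from day 0 to day 1, beside 1.55% of all genes, with a list median of -1.17. Socs3, the feedback inhibitor induced by Stat3, had 5620 and 5026 at day 0 and 200 and 191 at day 1, a log2 difference of -4.76 ± 0.36 (adjusted p = 9.7e-04). Of 15 formative and primed epiblast genes, 8 rose in the same step, beside 1.75% of all genes, with a median of 2.13. Sall2 among them rose by 3.19 ± 0.26 (adjusted p = 0.0014). Of 18 other genes tied to the naive network, 2 fell by day 1 and 16 by day 4, where their median was -3.88. The shares of all genes called lower were 1.55% at day 1 and 16.7% at day 4. Tdh, the threonine dehydrogenase of ES cells, was at -5.19 by day 4, Tcl1 at -6.89 and Jam2 at -6.69 (log2 fold changes). The core factors fell less: 6 of 9 fell by day 4, beside 16.7% of all genes, with a median of -1.21. Pou5f1 (Oct4) had 42644 and 45724 at day 0, 58615 and 46511 at day 1 and 19250 and 15112 at day 4. Of 15 repressors and other exit factors, 2 rose (1.75% of all genes) and none fell by day 1. By day 4, 1 rose (19.2% of all genes) and 6 fell (16.7%). Of the 6, Rbpj (-1.88) and Etv5 (-1.36) had the smallest p.

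The relatives of the members did not move as a block. Of 22 other Klf and Sp genes, 5 rose and 7 fell by day 4, with a median of -0.10. Of all genes, 19.2% were called higher and 16.7% lower. Klf3 fell by 1.31 ± 0.22 (adjusted p = 0.0015), and the Wnt-responsive Sp5 and the neural and tail bud gene Sp8 rose by 3.00 ± 0.48 and 4.61 ± 0.42. Of 20 tested relatives of the other members, 4 rose and 6 fell, beside the same shares of all genes. Grhl1, of the family of Tfcp2l1, fell by 2.40 ± 0.36, and Prdm8 rose by 4.17 ± 0.59. Nr5a1 and Nr0b2, the closest relatives of Nr5a2 and Nr0b1, did not pass the filter.

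The 2 genotypes were compared at day 4. Trp53 itself had 8339 and 11784 in the Trp53+/+ libraries and 866 and 802 in those of p53 family loss (log2 fold change -3.57 ± 0.20, adjusted p = 0.0017). Trp73 had 219 and 297 against 48.0 and 52.5. Trp63 was under 10 in every library of both genotypes, too low to check the hairpin. No member was called in either direction by limma, edgeR or DESeq2, beside 0.674% of 14840 genes lower and 0.566% higher with limma. At an unadjusted p under 0.05 limma found 2 members lower, Nanog and Klf4, beside 6.80% of all genes, and 1 higher, Klf2, beside 7.12%. The genotypes did not overlap for 4 members that were lower (20.2% of all genes) and 1 that was higher (23.0%). The members' median was -0.15.

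Nanog had 544 and 695 in Trp53+/+ and 337 and 395 in p53 family loss, and both libraries of the loss line lay below. The log2 difference was -0.75 ± 0.22 (adjusted p = 0.19, 95% interval -1.27 to -0.23). Klf4 had 375 and 243 against 209 and 144, a value of -0.79 ± 0.31 (adjusted p = 0.34). Prdm14 had 106 and 66.3 against 57.7 and 22.4, a value of -1.20 ± 0.52 (adjusted p = 0.38, 95% interval -2.44 to 0.05). Klf5 had 892 and 679 against 645 and 629.6, a value of -0.29 ± 0.20 (adjusted p = 0.62). Klf2 alone was higher in both libraries of the loss line, with 955 and 751 against 1636 and 1099 and a value of 0.66 ± 0.24 (adjusted p = 0.30, 95% interval 0.07 to 1.25). Leaving out Trp53+/+ replicate 1 brought Nanog (-0.93, adjusted p = 0.011) and Klf2 (0.84, adjusted p = 0.0051) past the threshold, and leaving out Trp53+/+ replicate 2 brought Klf4 (-1.11) and Prdm14 (-1.53) past it. Calls over all genes rose as well, from 100 lower and 84 higher to 643 and 956 without replicate 1 and to 594 and 512 without replicate 2. In these fits 1 library stands for Trp53+/+ and is assumed to vary as the p53 family loss libraries do. Single intervals are not adjusted for the 10 members.

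The other 5 members overlapped between genotypes. Zfp42 had 704 and 515 in Trp53+/+ and 696 and 565 in p53 family loss, a difference of 0.06 on the log2 scale (95% interval -0.49 to 0.61). Esrrb had 1287 and 910.1 against 1098 and 946, with -0.09 (-0.61 to 0.44). Tfcp2l1 had 1091 and 574 against 829 and 564, with -0.21 (-1.04 to 0.62). In these 3 genes the spread within a genotype was larger than the difference between the means. Nr0b1 had 184 and 129 against 162 and 131, with -0.08 (-0.78 to 0.62), and Nr5a2 had 164 and 79.6 against 146 and 83.4, with -0.05 (-1.13 to 1.03). The intervals of these 5 are widest for Tfcp2l1 and Nr5a2, and include a log2 difference of 1 for Nr5a2 in both directions. Replicate 1 was above replicate 2 in 9 of 10 members in each genotype, by medians of 1.42-fold and 1.34-fold. Ribosomal RNA (Rn45s) took 0.632% and 4.30% of the reads of Trp53+/+ replicates 1 and 2 and 0.848% and 2.91% of those of the loss line, and its part was not tested.

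Genes of other lists did differ between the genotypes. Of 11 primitive streak genes 10 fell, and among neuroectoderm markers Sox1 and Pax6 rose, by 4.57 ± 0.19 and 4.72 ± 0.27. The summed level of 7 neuroectoderm markers was 147 to 224 CPM in Trp53+/+ and 367 to 386 CPM in p53 family loss, and none was at 0. Of 18 other naive network genes, 1 rose, Gbx2, a homeobox gene also of the early neural plate. It had 99.9 and 122 in Trp53+/+ and 667 and 641 in p53 family loss (2.55 ± 0.22, adjusted p = 0.010). Of 9 core factors none was called. Pou5f1 had 15301 and 28216 against 9619 and 14947. The part of these cell type markers in the values of the factors was not tested.

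Set beside E14 EBs of the same day in CPM, without a test because the tables were scaled separately and the lines differ in strain and culture, the Trp53+/+ line held more of most factors. For 8 of 10 members both Trp53+/+ libraries lay above both E14 day 4 libraries, and for 7 those of p53 family loss did. The share of all genes that did so was not computed, so these counts cannot tell whether the factors differ from other genes. Nr0b1 had 1.05 and 1.09 CPM in E14 at day 4, 7.64 and 5.08 CPM in Trp53+/+ and 6.93 and 5.26 CPM in p53 family loss. Esrrb had 11.1 and 17.4 CPM in E14, 53.4 and 35.9 CPM in Trp53+/+ and 47.1 and 38.1 CPM in p53 family loss. The Trp53+/+ mean was nearest to the E14 mean of day 1 for 1 member, of day 2 for 3, of day 3 for 4 and of day 4 for 2. Nanog had a mean of 25.0 ± 3.45 CPM in Trp53+/+ (SD, n = 2), near the 24.1 CPM of E14 day 3, and 15.2 ± 1.02 CPM in p53 family loss, near the 15.2 CPM of E14 day 4. E14 day 1 was near as well, with 14.0 ± 4.56 CPM. The means of Nanog, Klf4, Klf5 and Prdm14 did not fall on every day in E14, so their nearest day marks a level and no stage.

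**Figure D4:**
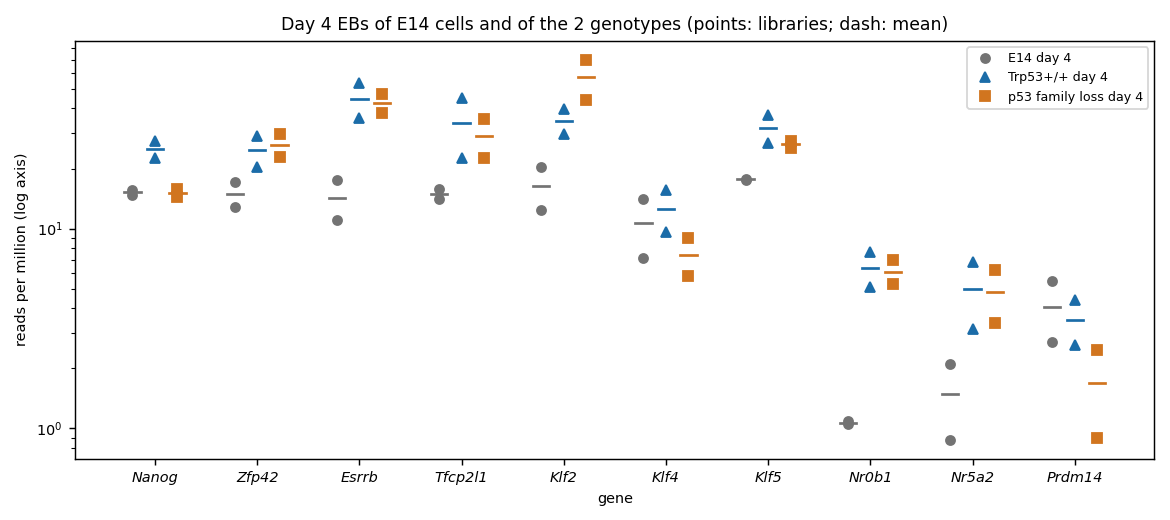
CPM (vertical log axis) of each factor (horizontal axis) in day 4 EBs of E14 cells, of Trp53+/+ cells and of p53 family loss, with a point per library and a dash at the mean. Nr0b1, Esrrb, Zfp42, Tfcp2l1, Klf2, Klf5 and Nr5a2 lie higher in both genotypes than in E14, and Nanog lies higher in Trp53+/+ (22.6 and 27.4 CPM) than in either other group.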

How the data were processed

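RNA-seq libraries were made with the TruSeq RNA v2 kit and sequenced with paired ends, per the labels' protocols. The submitters' processing notes list HTSeq 0.5.4, DESeq2, Bowtie2, FastQC 0.11.3 and SAMtools 0.1.19 with the build mm9, and give no roles. The deposited values are a signal in which each library's read counts share 1 scale factor: 100% were whole multiples of the library's smallest step within 1e-06, and dividing by it recovered 20104644 to 39835808 reads per E14 library and 19104692 to 31580252 per genotype library. Each table was fitted whole with limma 3.58.1 (R 4.3.3, intensity trend) on log2(value + 1), after edgeR's filterByExpr (15841 and 14840 genes), with 5 and 2 residual degrees of freedom; calls are at an adjusted p under 0.05. Simulated data, for day 4 against day 0 with 15841 genes, gave calls for 16.4%, 67.2% and 86.4% of genes changed 2, 4 and 8 times, and for the genotypes with 14840 genes 34.3%, 85.1% and 92.4%. Each simulation changed 67, 67 and 66 genes by these folds. The real fit of day 4 against day 0 called 3045 genes higher and 2653 lower, so its threshold was not the simulated one. Alternatives were pseudocounts of 0.5 and 10, no filter, TMM-scaled CPM, edgeR 4.0.16, DESeq2 1.42.0, a replicate block, only the days compared, each library left out and, for loss days, a line on the linear scale. The members, the gene lists and the rule for named genes (per list the 3 smallest p of day 4 against day 0 and the 2 smallest of the genotypes, and the nearest genes by correlation) were chosen with earlier results of these data known. Genes named outside that rule (Socs3 and Sall2 at day 1, Pou5f1 between genotypes, Rn45s) were chosen after their values were seen. ChIP-seq samples were not analysed here. Promoter windows came from RefSeq (GRCm38.p6), and no coordinates of the mm9 build were used. In the time course, libraries of equal replicate number deviated together among EB days 1 to 3 (r = 0.16 to 0.35) and not in the 7 pairs with day 0 or day 4 (r = -0.19 to 0.04), and no label ties the numbers, so they were not taken as pairs.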

Additional observations from a re-analysis of the deposited data

How the results depend on the processing

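The counts of members lower at days 2, 3 and 4 than at day 0 were 10, 9 to 10 and 10 under all alternatives. The count at day 1 (5, beside 246 of all genes) was 7 with DESeq2 (777) and 1 with only the days compared (6). That from day 1 to day 2 (6, beside 69) was 8 with DESeq2 (643) and 1 without a filter (16). With a library left out, either count could fall or rise, and so could the calls over all genes. Each such fit leaves 1 library for a day. Members lower from day 2 to day 3 (0) were 2 with DESeq2. Members lower from day 3 to day 4 were 1 in the main fit, beside 98 of all genes. They were 4 with DESeq2 (349 of all genes) and 3 with only the days compared (462). They were 0 with edgeR (84), without a filter (69) and with a pseudocount of 10 (98). Members higher were 0 in the main fit, beside 366 of all genes. They were 1 with DESeq2 (666 of all genes) and 1 with only the days compared (896). With a library left out both counts moved, as did the calls over all genes. In the genotypes, members lower (0) were 0 to 2 and members higher (0) 0 to 1 with a library left out. With the replicate block, a term for replicate number, 3 members were lower (Nanog, Klf4 and Prdm14) and 1 higher (Klf2), on 1 residual degree of freedom, where it called 1425 of all 14840 genes lower and 1548 higher, against 100 and 84 without it. Libraries of equal number deviated together there (r = 0.57), but with 2 numbers and no label that ties them this is a hint from the data only. The block moved no time course count by over 1.5 times. The cause of these moves was not tested. Fits with a library left out or with only the days compared use fewer libraries, and the fit without a filter uses more genes. Changes of sign came only with a library left out, for values that were not called: Nanog from day 1 to day 2 (-0.67 to 0.048), Tfcp2l1 from day 2 to day 3 (-0.27 to 0.064), Klf5 from day 3 to day 4 (-0.29 to 0.085), and between genotypes Zfp42 (-0.17 to 0.28), Esrrb (-0.34 to 0.16), Tfcp2l1 (-0.67 to 0.25), Nr0b1 (-0.34 to 0.18) and Nr5a2 (-0.57 to 0.47). The 50% loss day of Klf4 was 0.234 to 0.549 over its alternatives, the highest with a line on the linear scale, and that of Prdm14 0.714 to 1.24. With 2 libraries a group, most 2-fold changes were not called in the simulated data. Those data held far fewer changed genes than limma called in E14 at day 4. In the real fit limma did call some changes near 2-fold, among them Nanog at day 3 against day 0 (-1.09).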
